A study of Mus musculus with 4 samples.

Results

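The cells described here carried transcripts of Csf1r, Cx3cr1, Ccr2 and Trem2, receptors of monocytes and macrophages, and are called receptor cells below. A cell was taken when the UMIs (unique molecular identifiers, each counting a captured transcript) of these 4 genes together made up at least 3 per 10000 of its UMIs and at least 2 of the genes were detected. Ly6c2, a surface antigen of classical monocytes and their progenitors, had to be under 5 per 10000, and Cebpe, a transcription factor of late granulocyte differentiation, under 4 per 10000. The rule found 953 of 9960 cells, or 9.57%. Of these, 335 were in library A and 320 in library B, both enhancer-deleted, and 178 were in F and 120 in I, both wild type.

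Transcripts were measured by 10x Genomics Chromium in Lin-Sca-cKit+Cd34+ progenitors sorted from C57Bl/6J fetal livers at E14.5. The enhancer-deleted genotype (Gata2-77-/-) lacks -77, an enhancer upstream of Gata2 that the labels name by this number, and wild-type embryos are its controls. There were 2 libraries per genotype, and the series text names 2 embryos per genotype. The deletion is present in the whole embryo, and the sort kept only cells with Kit and CD34 protein, so neither mature monocytes nor resident macrophages were sampled by design. Nothing ties the libraries to litters, so p-values refer to the spread of these 4 libraries.

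Monocytes and macrophages arise from myeloid progenitors under the control of the transcription factors PU.1 (Spi1) and Irf8, and the fetal liver is a main source of the monocytes that seed fetal tissues. Csf1r is the receptor for the macrophage growth factor CSF1 and for IL-34. Cx3cr1 and Ccr2 are the receptors for the chemokines CX3CL1 and CCL2, and Trem2 is a lipid-sensing receptor that signals through the adaptor Tyrobp.

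The 2 windows printed next belong to the genes on which the results turn: Trem2, by whose presence the receptor cells were split, and Pim1, the single gene that passed the test between genotypes. Each runs from 250 bases before to 50 after a transcription start, on the + strand of chromosome 17, as given by RefSeq (GRCm38.p6). Capitals mark GAGGAA, a core of PU.1 (ETS family) motifs, or TTCCTC, the same letters on the other strand.

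Trem2, chr17:48346151-48346450: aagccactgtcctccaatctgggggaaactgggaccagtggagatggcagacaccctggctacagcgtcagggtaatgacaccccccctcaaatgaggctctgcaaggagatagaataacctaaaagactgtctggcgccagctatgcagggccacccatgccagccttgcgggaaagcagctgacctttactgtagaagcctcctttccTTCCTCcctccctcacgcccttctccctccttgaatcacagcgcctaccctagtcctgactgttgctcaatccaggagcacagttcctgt
Pim1, start site 2, chr17:29492835-29493134: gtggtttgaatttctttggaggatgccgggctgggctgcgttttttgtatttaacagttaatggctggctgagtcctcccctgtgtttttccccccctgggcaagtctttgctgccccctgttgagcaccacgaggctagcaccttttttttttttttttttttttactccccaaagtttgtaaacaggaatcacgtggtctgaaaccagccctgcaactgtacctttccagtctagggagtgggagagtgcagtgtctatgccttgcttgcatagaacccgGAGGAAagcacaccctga

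The window at start site 1 of Pim1 (chr17:29490535-29490834) and those of Cx3cr1 and Ccr2, both on chromosome 9, held neither form of GAGGAA. The letters TTCNNNGAA, a core of STAT motifs that reads the same on both strands, were in none of these 5 windows. Over 32851 promoter windows of the same length, 28.3% held GAGGAA on either strand and 8.30% held TTCNNNGAA. A match describes the letters only.

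The 4 libraries held 1938 to 3042 cells, and the median cell had 7087 to 7492 UMIs in the enhancer-deleted libraries and 12826.5 to 17437.5 in the wild-type ones. Receptor cells had medians of 6971 and 6675.5 UMIs in A and B, against 13108.5 and 21317.5 in F and I. Gata2, the target of the enhancer, reached 7.48 and 6.73 CPM (the usual library-scaled count: UMIs of a gene over all UMIs of the measured panel) over all cells of A and B, and 26.3 and 23.2 CPM in F and I. Receptor cells held 5 and 5 Gata2 UMIs in A and B and 2 and 1 in F and I, too few to pass the filter for a test within them. No cell column occurred more than once, and the files carry no barcodes to compare between libraries. Free RNA was gauged in cells of other lineages: 1 of 68 globin-rich cells (median 9413.5 UMIs) and 1 of 238 Camp-high cells (median 10358 UMIs) met the rule. Together the 4 receptor genes reached 16.1 and 17.9 CPM in those cells and 556 CPM in the receptor cells. Those cells were pooled over the libraries. Camp stood at 1.73 and 2.21 CPM in other cells of A and B and 384 and 129 in F and I. The beta globin Hbb-bs was at 227 and 189 CPM in A and B and 1169 and 1995 in F and I. The check therefore says less about A and B than about F and I.

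The genes used to choose the cells are given as a description. In libraries A and B, against F and I, Csf1r stood at 174 and 179 CPM, against 154 and 143. Ccr2 was at 209 and 198 CPM in the enhancer-deleted libraries and at 203 and 192 in the wild-type ones. Cx3cr1 was at 121 and 96.1 CPM in A and B and at 74.4 and 88.1 in F and I. Trem2 was at 115 and 120 CPM in A and B and at 74.0 and 83.4 in F and I. The libraries of the genotypes did not overlap for Csf1r, Cx3cr1 and Trem2 and overlapped for Ccr2. Of all genes tested in receptor cells, 45.3% did not overlap. These 4 genes chose the cells, on a median of 4 of their UMIs per cell in A and B, 6 in F and 10 in I. The part of this choice in their levels was not tested. Csf1r was found in 81.8% of receptor cells, Ccr2 in 81.3%, Cx3cr1 in 54.5% and Trem2 in 50.2%. All 4 genes were found together in 131 cells, or 13.7%. The commonest pair without the other genes was Csf1r with Ccr2, in 178 cells.

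The rule is a range cut from a continuum. The 142 cells with a sum of 3 to 3.5 per 10000 had 108 CPM of Csf1r, 101 of Ccr2, 60.0 of Cx3cr1 and 58.4 of Trem2. The 143 cells just below, at 2.5 to 3, had 101, 86.2, 51.4 and 33.8 CPM of these genes. Lyz2, the lysozyme of macrophages, was at 799 CPM just inside and 694 CPM just outside, against 1292 CPM over all receptor cells.

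The monocyte part of the name was checked against the mixture of other cells, with genes that the rule did not use. The macrophage part could not be checked. Of 18 measured genes of the monocyte/macrophage list outside the rule, 17 were higher in receptor cells than in other cells in all 4 libraries, where 20.5% of all genes were. Summed, these 18 genes reached 6217 and 5590 CPM in receptor cells of A and B and 5473 and 5687 in F and I. In Ly6c2-high cells, defined below, the sums were 6158 and 5597 CPM in A and B and 4501 and 4681 in F and I. The sums of these classes were thus close in A and B, and receptor cells had the higher sums in F and I. Ctss, a lysosomal protease of myeloid cells, stood at 53.7 and 51.0 CPM in A and B and 48.9 and 52.4 in F and I, against 4.28 to 8.26 CPM in other cells. Of 20 mature liver macrophage and microglia genes, Hmox1, the heme-degrading enzyme, was the single one measured, with 52 UMIs in all receptor cells. Of 15 measured stem and multipotent progenitor genes, 14 were lower in all 4 libraries, where 25.4% of all genes were, and so were 11 of 14 neutrophil genes and 17 of 20 erythroid genes. Car1, Rhd and Hemgn, of the red cell lineage, and Lyve1 of endothelium were at 0. No hepatoblast or stromal gene of the lists was measured. These are values of cells chosen by expression and were not tested against the rest.

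**Figure D1:**
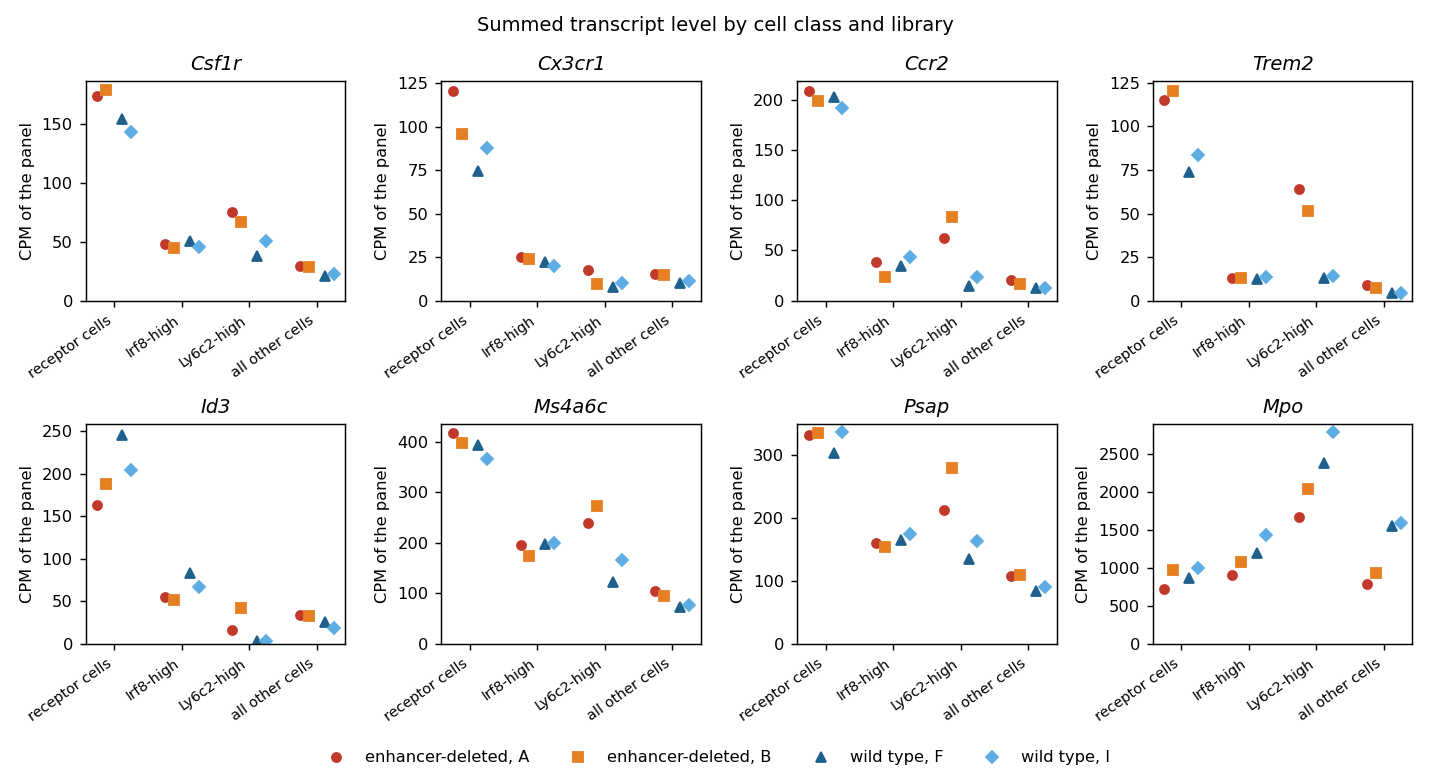
Summed transcript level (CPM of the panel, y axis, from 0) of 8 genes in receptor cells, Irf8-high cells, Ly6c2-high cells and all other cells; each point is a library. The 4 receptor genes chose the cells; Id3, Ms4a6c and Psap were also highest in receptor cells, while Mpo was highest in Ly6c2-high cells.

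Genes of at least 100 CPM in receptor cells were ranked by their smallest ratio over other cells, and the first 20 included Ccr2 and Csf1r of the rule. Less abundant genes could have higher ratios, such as Lgals3 at 9.36 or more. Among the 20 were Id2 and Id3, which hold basic helix-loop-helix factors in check. Id2 stood at 112 and 80.4 CPM in A and B and 155 and 101 in F and I, at least 6.56 times the level of other cells in each library. Id3 stood at 164 and 189 CPM in A and B and 246 and 205 in F and I, at least 4.89 times that of other cells. Pld4, an endolysosomal nuclease, and Ly86, the partner of the receptor RP105, had smallest ratios of 5.10 and 4.66. Ifi30, a lysosomal thiol reductase of antigen processing, reached 97.6 and 97.4 CPM in A and B and 115 and 135 in F and I. The other endosomal and lysosomal genes among the 20 leading ones were Ctsc (cathepsin C), Psap (the saposin precursor), H2-DMa (a class II peptide loader), Stx7 (a late endosomal SNARE), Unc93b1 (the chaperone of nucleic acid-sensing Toll-like receptors) and Cst3 (the cathepsin inhibitor cystatin C). Their smallest ratios ran from 2.03 for Unc93b1 to 3.46 for Ctsc. Lyz2, Ms4a6c, Rassf4, Rogdi, Sat1, Tifab and Ifitm3, an interferon-induced membrane protein, completed the 20, with smallest ratios from 2.04 for Tifab to 3.99 for Ms4a6c. Of 20 measured antigen presentation and lysosomal genes, 18 were higher in all 4 libraries, where 20.5% of all genes were. Ctsc and Lyz2 were higher in Ly6c2-high cells than in receptor cells of A and B and lower in F and I. Unc93b1 was higher in Ly6c2-high cells of I. The other genes of the 20 were lower in Ly6c2-high cells in each library.

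Of 22 measured myeloid transcription regulators, 7 were higher and 9 lower than in other cells in all 4 libraries. Of all genes, 20.5% were higher and 25.4% lower. Cebpa, a factor of early granulocyte and monocyte progenitors, was among the lower ones, at 0.715 to 0.931 times other cells. Irf8 stood at 444 and 459 CPM in A and B and 399 and 326 in F and I, 1.99 to 2.91 times the level of other cells. Klf4, a factor of monocyte differentiation, was at 30.2 and 28.6 CPM in A and B and 34.8 and 40.4 in F and I, 5.96 to 7.78 times other cells. Irf5, which drives inflammatory genes in macrophages, was at 64.9 and 90.7 CPM in A and B and 75.6 and 98.8 in F and I. Spi1 was at 530 and 599 CPM in A and B and 541 and 603 in F and I, 1.48 to 1.67 times other cells. Among surface receptors outside the rule, Fcgr1, the high-affinity IgG receptor, stood at 5.71 to 10.3 times other cells, and Csf2rb, the shared chain of the GM-CSF receptor, at 2.18 to 2.76 times. Cybb, the catalytic subunit of the phagocyte oxidase, stood at 3.70 to 5.47 times. Ly6c2-high cells shared part of this. There Irf8 stood at 490 and 478 CPM in A and B and 350 and 330 in F and I. Klf4 was at 28.2 and 34.5 CPM there in A and B and 24.7 and 33.5 in F and I. Cybb was at 92.0 and 103 CPM there in A and B, against 86.0 and 76.4 in receptor cells. In F and I it was at 58.9 and 78.0 CPM, against 74.0 and 89.8. Irf5, Fcgr1 and Csf2rb were lower in Ly6c2-high than in receptor cells in each library. Transcripts of the sort antigens were both present: Cd34 stood at 327 and 331 CPM in A and B and 281 and 266 in F and I, and Kit at 29.4 and 29.5 in A and B and 21.8 and 22.1 in F and I. Kit was below other cells in every library, at 0.472 to 0.722 times. Of 20 G2/M genes, 14 were higher in all 4 libraries, where 20.5% of all genes were. Mki67, a marker of cycling cells, was at 1.27 to 1.57 times other cells.

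Receptor cells were not uniform. For each receptor gene, cells with a UMI were set against cells without, with library totals of their own, and the 5 genes of at least 100 CPM that differed furthest in the least extreme library were read in each direction. These cells were selected on the receptors, and no test was made. Cells with Trem2 (151 and 163 in A and B, 90 and 74 in F and I) had more Apoe, the lipid carrier of macrophages: 405 and 247 CPM with Trem2 in A and B and 271 and 254 in F and I, against 178 and 166 without it in A and B and 84.4 and 43.5 in F and I. Lyz2 was at 2082 and 1427 CPM with Trem2 in A and B and 1404 and 1709 in F and I, against 890 and 817 without it in A and B and 783 and 704 in F and I. Genes were chosen by their least extreme library, so the shared direction in all 4 libraries follows from the choice. Ctsc was 1.64 to 3.61 times higher with Trem2, Ifi30 1.51 to 2.14 times and Fdps, an enzyme of cholesterol synthesis, 1.59 to 1.90 times.

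In the other direction, Hmga2, a chromatin protein of fetal progenitors, stood at 0.335 to 0.526 times its level in cells without Trem2. Cdk6, the G1 kinase of cycling progenitors, stood at 0.543 to 0.733 times, Marcksl1 at 0.574 to 0.687 times, Egfl7 at 0.459 to 0.691 times and Ifitm1, an interferon-induced membrane protein, at 0.578 to 0.704 times. Cells with Trem2 also had more UMIs, with medians of 8063 and 7758 in A and B and 15243 and 23359 in F and I, against 6199 and 5778 without it in A and B and 11418.5 and 14746 in F and I. Every cell was also thinned to 4346 UMIs, and receptor cells were chosen again from the thinned counts. Of the receptor cells, 194 and 198 were chosen again in A and B and 88 and 65 in F and I. Cells new to the set numbered 28 and 29 in A and B and 44 and 25 in F and I. Thinned receptor cells with Trem2 numbered 273, and those without it 398. The direction was kept in all 4 libraries for Apoe, Lyz2, Ctsc, Ifi30, Hmga2, Marcksl1, Egfl7 and Cdk6. For Fdps and Ifitm1 it was kept in 3 of 4. The libraries are the same, so this is not an independent check.

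**Figure D2:**
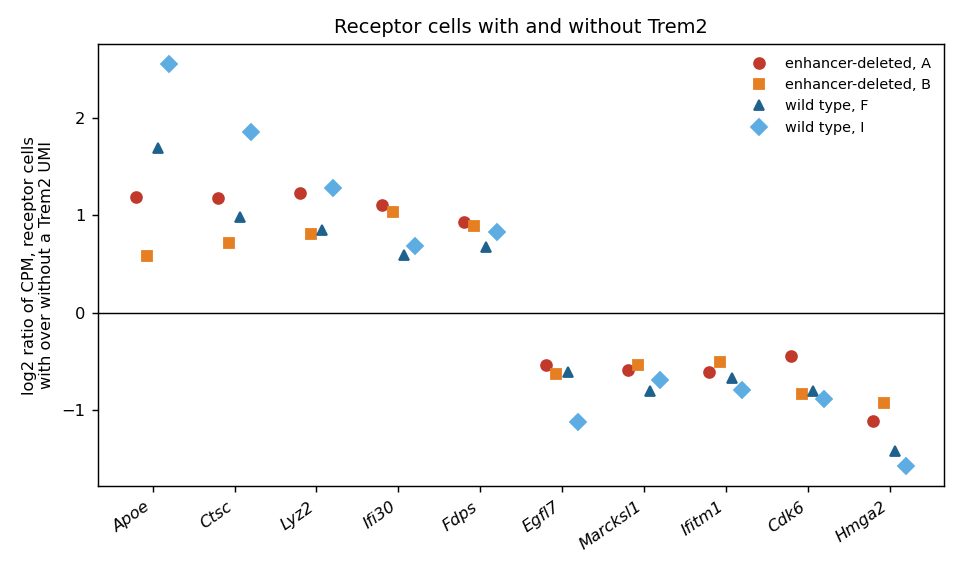
Ratio of CPM in receptor cells with a Trem2 UMI over those without (y axis, log2), for the 5 genes furthest above and the 5 furthest below, by library. The genes were chosen by their least extreme library, so all 4 libraries lie on the same side of 0 by choice. Apoe is the most spread, from 1.49 to 5.85 times.

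Cx3cr1 split the cells the other way for several of these genes. Hmga2 stood at 205 and 193 CPM with Cx3cr1 in A and B and 200 and 138 in F and I, against 112 and 154 without it in A and B and 137 and 118 in F and I. Marcksl1 was 1.18 to 1.43 times higher with Cx3cr1, Mef2c, a transcription factor of myeloid and lymphoid progenitors, 1.12 to 1.49 times, and the chemokine gene Ccl9 1.18 to 1.496 times. Elane, the neutrophil elastase of primary granules, stood at 0.548 to 0.742 times its level without Cx3cr1, and Ifi30 at 0.679 to 0.839 times. Median UMIs differed little here, at 6944 and 7058 with Cx3cr1 in A and B and 12840 and 20946 in F and I, against 7025.5 and 6612 without it in A and B and 13939 and 21469 in F and I. At one depth the direction was the same in all 4 libraries for Hmga2, Marcksl1, Mef2c, Ccl9 and Elane, and in 3 of 4 for Ifi30, although the smallest Mef2c ratio was then 1.002. The rule requires a cell without one receptor to carry others, and its part in these differences was not tested. Cells with Ccr2 had 1.57 to 2.34 times the Lyz2 and 1.35 to 1.91 times the Sat1 of cells without it, both in 4 of 4 libraries at one depth too. The other 8 genes read for Ccr2 kept their direction in 1 to 3 libraries at one depth, and the 10 read for Csf1r in 2 or 3.

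Cells in which more of the receptor genes were detected had more Lyz2. With all 4 genes it stood at 2623 and 2114 CPM in A and B and 1847 and 1710 in F and I, against 1054 and 982 with 2 genes in A and B and 703 and 778 in F and I. Their median UMIs were higher too, at 8057 and 9098 in A and B and 15982 and 23681 in F and I with 4 genes, against 6252.5 and 5912 in A and B and 10381.5 and 12632 in F and I with 2. The part of depth in this difference was not tested.

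The share of receptor cells compares how many progenitors carried these receptors in each genotype. It was 14.99% (95% Wilson interval 13.6% to 16.5%) in library A and 11.7% (10.5% to 12.9%) in B, against 5.85% (5.07% to 6.74%) in F and 6.19% (5.20% to 7.35%) in I. The enhancer-deleted mean was 13.3% ± 2.36 and the wild-type mean 6.02% ± 0.241 (SD, n = 2 each), 2.21 times as high in the enhancer-deleted libraries, and the genotypes did not overlap. With 2 libraries against 2, the exact two-sided permutation test cannot go below the p = 0.333 found here. The intervals cover counting error only. The deposited table is named as a subsample and holds equal numbers of cells per genotype, so shares within libraries are compared.

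Depth moved with genotype, and the share was therefore also counted at one depth. The rule was applied again to the thinned cells. At 4346 UMIs, its demand for 2 detected genes already exceeds a sum of 3 per 10000. With each cell thinned to 4346 UMIs, which left out 855 enhancer-deleted and 140 wild-type cells, the shares were 12.1% and 9.92% in A and B and 4.50% and 4.71% in F and I, 2.39 times as high in the enhancer-deleted libraries. Requiring at least 3 of the receptor genes gave 6.85% and 5.14% in A and B and 3.94% and 5.21% in F and I, so that the genotypes overlapped (ratio 1.31, exact permutation p = 0.667). With the same requirement at one depth they did not overlap, at 2.78% and 2.53% in A and B and 0.853% and 0.838% in F and I. A sum of at least 2 per 10000 gave a ratio of 1.72 and of at least 5 a ratio of 3.10.

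**Figure D3:**
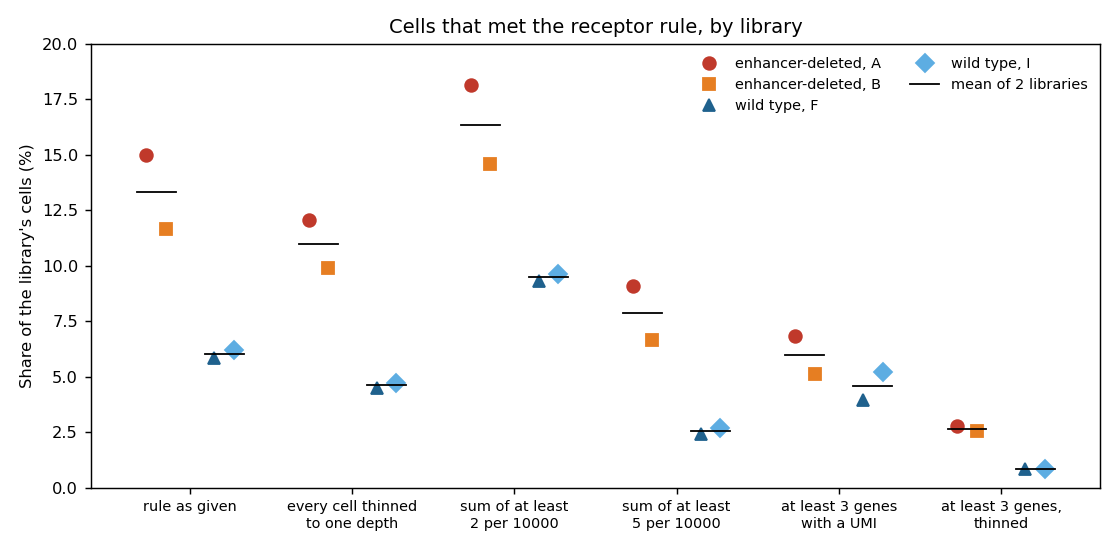
Share of each library's cells that met the rule (%, y axis) under the rule as given and 5 changes of it; points are libraries and bars the mean of 2. The enhancer-deleted libraries lie above both wild-type ones except when at least 3 genes are required without thinning, where B (5.14%) and I (5.21%) overlap.

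Shares of 2 related classes differed in opposite directions. Irf8-high cells outside the rule (Irf8 of at least 3 per 10000, with the same limits on Ly6c2 and Cebpe) made up 22.6% and 26.0% of A and B and 9.47% and 9.24% of F and I. Ly6c2-high cells (Ly6c2 of at least 5 per 10000, the same limit on Cebpe) made up 3.89% and 2.00% of A and B and 8.78% and 6.04% of F and I. Neither pair of genotypes overlapped, and the exact permutation p was 0.333 for each. Shares of one library are bound together, since a larger share of one class leaves less for the rest.

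Within receptor cells the test between genotypes asked whether cells of this kind differed once chosen. Of 3539 genes tested, 1 passed (0.0283%, edgeR quasi-likelihood on UMIs summed per library, adjusted p under 0.05), and 474 had an unadjusted p under 0.05. Pim1, a serine/threonine kinase induced by cytokine receptors that act through STAT factors, stood at 38.0 and 43.4 CPM in A and B, against 108 and 148 CPM in F and I. Both enhancer-deleted libraries were below both wild-type ones. Pim1 fell 3.07-fold, at 40.7 ± 3.76 CPM in enhancer-deleted and 128 ± 28.1 CPM in wild-type libraries (SD, n = 2 each; log2 fold change -1.62, SE 0.16, edgeR adjusted p = 0.0173). It passed under all 12 alternatives, with adjusted p from 5.86e-09 to 0.0448. Pim1 (ENSMUSG00000024014.8) spans positions 29490753 to 29496112 of chromosome 17 on the + strand, in mm10. The number of genes that passed was 55 without library A, 26 without B, 31 without I and 1 without F, and it was 11 with DESeq2 and 31 at one depth.

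Pim1 also passed in Irf8-high cells. There it stood at 48.8 and 68.7 CPM in A and B and 121 and 133 in F and I (log2 fold change -1.08, edgeR adjusted p = 0.0341). The fall in receptor cells exceeded that by 0.52 on the log2 scale (SE 0.16), which did not pass (edgeR adjusted p = 0.327; 0.0267 without library F). In Ly6c2-high cells Pim1 was at 19.3 and 49.3 CPM in A and B and 58.9 and 74.1 in F and I. Its log2 fold change there was -1.08, which did not pass (edgeR adjusted p = 0.250). The difference from receptor cells did not pass either (log2 difference -0.52, SE 0.30, edgeR adjusted p = 0.439). Over all other cells Pim1 was at 62.6 and 80.0 CPM in A and B and 79.4 and 89.3 in F and I. Its difference from receptor cells passed there (log2 difference -1.31, SE 0.14, edgeR adjusted p = 1.76e-06). It passed under all 10 alternatives.

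The other genes named here did not pass within receptor cells in the main fit, and their values are given as such. The libraries of the genotypes did not overlap for 45.3% of all genes tested, so non-overlap alone says little. Among chemokines, Ccl9 stood at 166 and 180 CPM in A and B and 121 and 86.4 in F and I (log2 fold change 0.77, SE 0.15, edgeR adjusted p = 0.148). It passed with DESeq2 and without library A, with a lowest adjusted p of 0.0126. Clec12a, an inhibitory C-type lectin receptor, stood at 203 and 219 CPM in A and B and 138 and 154 in F and I, at the same adjusted p of 0.148 in edgeR. Without library A or I it passed, at 0.0151 at the lowest. Ctsc was at 205 and 180 CPM in A and B and 287 and 478 in F and I (log2 fold change -0.95, SE 0.20, edgeR adjusted p = 0.159). It passed at one depth, without library A and without I, with 3.43e-05 as the lowest adjusted p. Lgals3, a galectin of macrophages, was at 50.9 and 37.5 CPM in A and B and 68.3 and 82.6 in F and I, with an edgeR adjusted p of 0.227, and of 0.0141 without A.

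Read by role, no list had a member that passed. Of 18 monocyte/macrophage genes outside the rule, 5 had an unadjusted p under 0.05, and the list's median log2 fold change was 0.10, against -0.01 over all genes. Over all genes tested, 474 of 3539 had such a p, the background for this and the following list counts. Of 19 antigen presentation and lysosomal genes, 6 had, with a median of 0.12. H2-DMa stood at 153 and 151 CPM in A and B and 119 and 108 in F and I, and Npc2, the lysosomal cholesterol carrier, at 504 and 534 in A and B and 464 and 413 in F and I. All 6 lipid-handling genes had positive values (median 0.28), with Apoe at 291 and 211 CPM in A and B and 188 and 188 in F and I. H2-DMa passed at one depth (lowest adjusted p 0.0246), and Apoe at one depth and without B (0.00891). Of 10 cytokine receptors outside the rule, 3 had an unadjusted p under 0.05: Csf2rb was at 84.3 and 88.9 CPM in A and B and 108 and 115 in F and I, Cd27 at 14.1 and 16.5 in A and B and 9.71 and 7.66 in F and I, and Kit as given above. Among the Trem2 and Tyrobp signalling genes, 1 of 8 had an unadjusted p under 0.05, the Fc receptor chain Fcer1g, at 744 and 705 CPM in A and B and 585 and 641 in F and I.

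Of 18 myeloid transcription regulators tested, none passed and 5 had an unadjusted p under 0.05, against 474 of all 3539 genes. Their median log2 fold change was -0.0026, with 9 above 0 and 9 below. Irf8 had a log2 fold change of 0.35 (SE 0.12, edgeR adjusted p = 0.271). Id3 had -0.33 (SE 0.13, edgeR adjusted p = 0.334), and Junb, an AP-1 factor of early response, stood at 11.2 and 20.6 CPM in A and B and 25.5 and 28.5 in F and I. The stem and progenitor list had a median of 0.38 over 10 genes, with Meis1, a homeobox factor of stem cells, at 17.8 and 15.6 CPM in A and B and 8.90 and 11.1 in F and I. The interferon list had 8 of 10 genes without overlap, where 45.3% of all genes tested had none, but in both directions (median -0.11). The stem and progenitor, cytokine receptor and neutrophil lists each had 7 of 10 genes without overlap. Isg15, a ubiquitin-like interferon target, was at 13.6 and 21.5 CPM in A and B and 8.90 and 2.98 in F and I, and Ifi30 had a log2 fold change of -0.32. Rtp4, another interferon target, was at 5.79 and 6.26 CPM in A and B and 2.43 and 3.41 in F and I. S-phase genes had a median of -0.07 over 19 genes, with Hells, a chromatin remodeller of dividing cells, at 95.5 and 106 CPM in A and B and 133 and 132 in F and I. G2/M genes had a median of -0.02 over 20, with none at an unadjusted p under 0.05, and ribosomal protein genes 0.08 over 20.

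Transcripts of other lineages differed between the genotypes in receptor cells too, without passing. Of 10 neutrophil genes tested, 9 had negative values (median -0.26), and of 9 erythroid genes 6 had (median -1.14). Elane stood at 302 and 265 CPM in A and B and 430 and 495 in F and I. S100a8 and S100a9 encode calprotectin. S100a8 was at 14.1 and 29.9 CPM in A and B and 154 and 57.0 in F and I, and S100a9 at 4.96 and 3.58 in A and B and 99.1 and 16.6 in F and I. The beta globin Hbb-bs was at 4.55 and 13.4 CPM in A and B and 81.3 and 34.1 in F and I. In other cells the wild-type libraries were also the higher ones for S100a8, S100a9, Elane and Hbb-bs, and S100a8 stood at 274 and 122 CPM in A and B and 2864 and 1858 in F and I. Summed over the measured lists, neutrophil genes in receptor cells made up 4395 and 4893 CPM in A and B and 5335 and 5695 in F and I, and erythroid genes 103 and 141 in A and B and 280 and 172 in F and I. Their part in the results within receptor cells was not tested. Elane passed under 5 of 12 alternatives and S100a8 and Hbb-bs under 5 each, among them without library A, without B and without I.

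**Figure D4:**
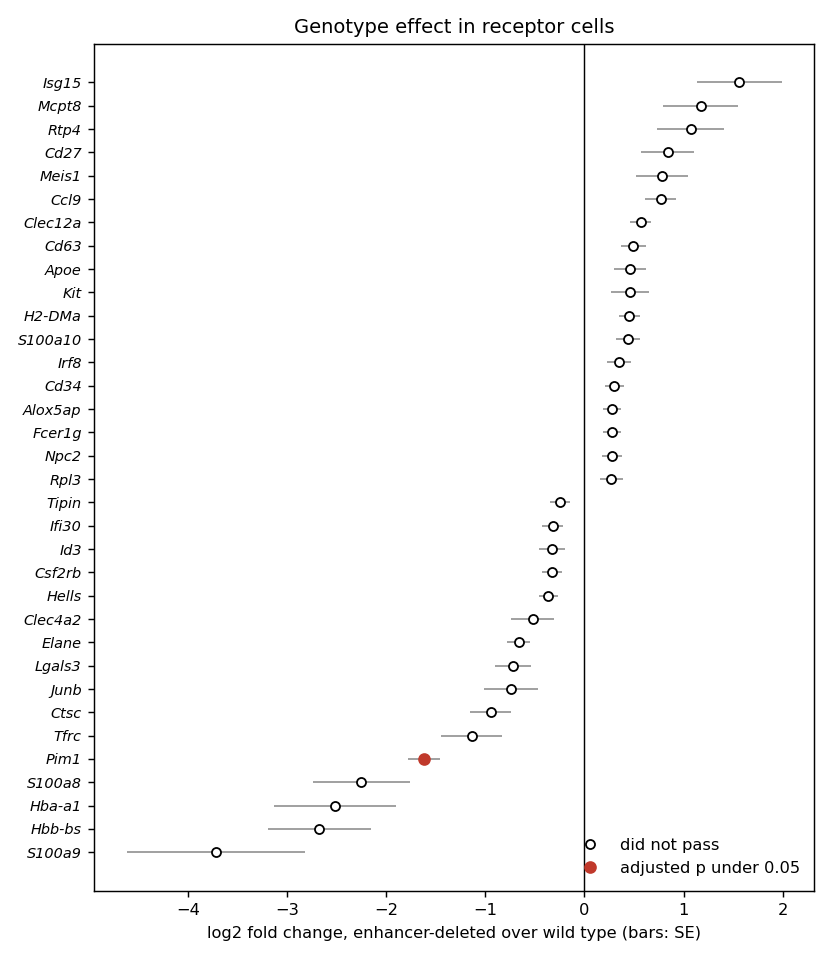
Genotype effect within receptor cells for 34 genes named by rule (log2 fold change of enhancer-deleted over wild type on the x axis, bars are the SE; 2 libraries per genotype). Pim1 (-1.62) is the filled point that passed; The calprotectin and globin genes lie lower with wider errors.

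The next comparison asked whether the effect of the deletion in receptor cells differed from that in all other cells of the same libraries. It did for 761 of 3620 genes (21.0%), with 439 differences above 0 (12.1%) and 322 below (8.9%); without the genes of the rule the count was 758. Apoe had the smallest p. It stood at 291 and 211 CPM in receptor cells of A and B and 188 and 188 in those of F and I, while in other cells it was at 116 and 83.0 in A and B and 455 and 379 in F and I (log2 difference 2.58, SE 0.09, edgeR adjusted p = 8.23e-13). Apoc1, its neighbour gene and also an apolipoprotein, differed by 1.71 (SE 0.16). Of 6 lipid-handling genes, 5 differed above 0 and 1 below.

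Interferon-induced membrane genes differed in the other direction. Ifitm3 was at 1053 and 975 CPM in receptor cells of A and B and 1334 and 1112 in F and I, against 473 and 474 in other cells of A and B and 257 and 222 in F and I (log2 difference -1.16, SE 0.06, edgeR adjusted p = 9.47e-11). Ifitm1 differed by -1.46 (SE 0.08, edgeR adjusted p = 1.90e-10). Of 10 interferon genes, 5 differed below 0 and none above, where 8.9% of all genes tested differed below 0 and 12.1% above. Ifitm3, Ifitm1, Apoe and Apoc1 passed under all 10 alternatives. Cox4i2, a tissue-specific cytochrome oxidase subunit, was at 71.5 and 88.0 CPM in receptor cells of A and B and 85.7 and 71.1 in F and I, and in other cells at 83.6 and 98.5 in A and B and 34.0 and 33.04 in F and I (log2 difference -1.33, SE 0.12, edgeR adjusted p = 3.02e-07). In receptor cells its libraries overlapped.

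Granule and Fc receptor genes stood apart as well. Of 14 neutrophil genes, 9 differed above 0. Over all genes tested, 12.1% did, the background for the list counts of this paragraph. Mpo, the myeloperoxidase of primary granules, was at 721 and 975 CPM in receptor cells of A and B and 868 and 1002 in F and I, against 789 and 936 in other cells of A and B and 1553 and 1588 in F and I (log2 difference 0.81, SE 0.07, edgeR adjusted p = 5.65e-08). Of 7 Fc receptor and C-type lectin genes, 5 differed above 0. Fcgr3, the low-affinity IgG receptor, was at 73.6 and 83.6 CPM in receptor cells of A and B and 59.9 and 92.8 in F and I, against 74.0 and 72.9 in other cells of A and B and 226 and 195 in F and I. Clec12a differed by 1.32 (SE 0.12) and the tetraspanin Cd63 by 2.02 (SE 0.14). Of 20 ribosomal protein genes 19 differed above 0, by small amounts such as 0.35 (SE 0.03) for Rpl3. The other cells are a mixture, and a change in which cells make it up cannot be told apart from a change within cells. The count was 240 without library A, 480 without B, 285 at a threshold of 5 per 10000 and 324 at one depth.

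**Figure D5:**
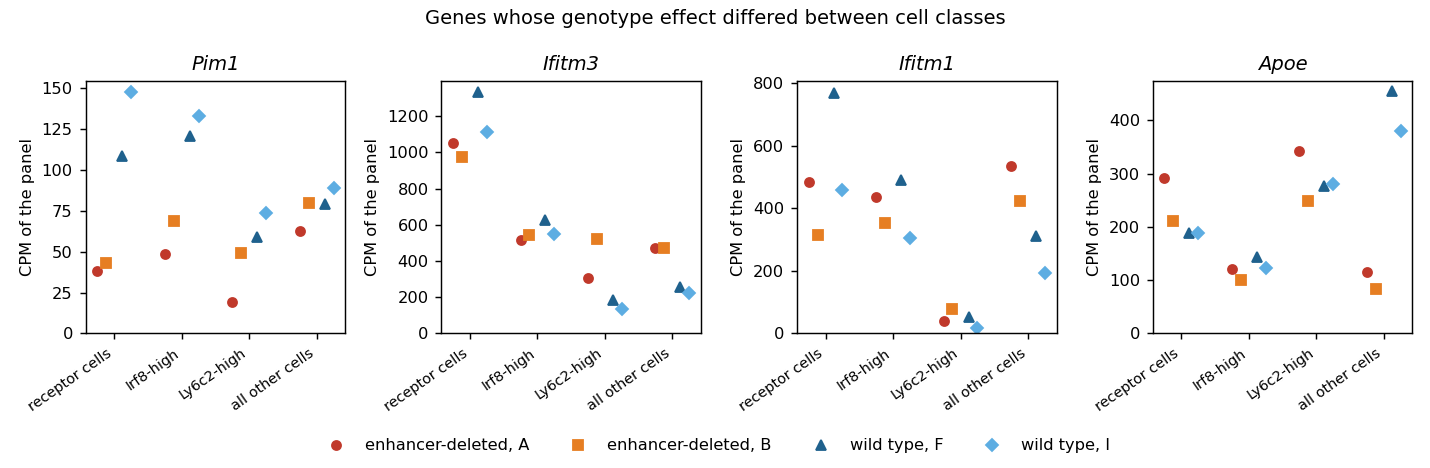
Level (CPM of the panel, y axis, from 0) of Pim1, Ifitm3, Ifitm1 and Apoe by library in receptor cells, Irf8-high, Ly6c2-high and all other cells. In other cells Apoe is lower and Ifitm3 higher in the enhancer-deleted libraries. In receptor cells both orders are reversed, though neither gene passed within them, and Pim1 is lower in both enhancer-deleted libraries.

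Ly6c2-high cells carry the antigen of classical monocytes, but transcripts of other lineages were abundant in them. Neutrophil genes outside the rule summed to 17925 and 16751 CPM there in A and B and 29984 and 26823 in F and I. In receptor cells these sums were 4395 to 5695 CPM. Erythroid genes summed to 2511 CPM in Ly6c2-high cells of I, against 123 to 188 in those of A, B and F. The part of such mixture in the differences below was not tested. The genotype effect differed from theirs for 97 of 3560 genes (2.72%), 55 above 0 (1.54%) and 42 below (1.18%), and for 95 without the genes of the rule. Ifitm3 again differed, at the receptor cell values above, against 306 and 522 CPM in Ly6c2-high cells of A and B and 182 and 136 in F and I (log2 difference -1.51, SE 0.15, edgeR adjusted p = 6.53e-06; passed under all 7 alternatives). Id3 was at 16.3 and 41.9 CPM in Ly6c2-high cells of A and B and 3.18 and 3.48 in F and I, below every receptor cell library (log2 difference -3.33, SE 0.42, edgeR adjusted p = 4.90e-05; 0.0731 without library B). Of 18 monocyte/macrophage genes outside the rule, 4 differed below 0 and none above. They were Ms4a6c, Lyz2, Fcgr1 and Ctss, each higher in Ly6c2-high cells of A and B than of F and I and with log2 fold changes of 0.09 to 0.14 in receptor cells. At one depth none of these 4 differences passed (edgeR adjusted p = 0.413, 0.147, 0.178 and 0.674). Ms4a6c, for example, stood at 417 and 397 CPM in receptor cells of A and B and 394 and 366 in F and I, against 239 and 273 in Ly6c2-high cells of A and B and 122 and 166 in F and I. It did not pass without library A (edgeR adjusted p = 0.142), B (0.405) or F (0.214). Lyz2 did not pass without A (0.178) or B (0.120), and Fcgr1 and Ctss not without A (0.250 and 0.149), B (0.300 and 0.424) or F (0.211 and 0.307).

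S100a11, a calcium-binding protein, and Cd63 differed above 0, by 0.85 (SE 0.10) and 1.22 (SE 0.14). Cd63 did not pass at one depth (log2 difference 0.87, edgeR adjusted p = 0.108). S100a11 was at 192 and 131 CPM in receptor cells of A and B and 146 and 132 in F and I, against 467 and 374 in Ly6c2-high cells of A and B and 662 and 597 in F and I. Gstm1, a glutathione transferase, differed by 1.30 (SE 0.23, edgeR adjusted p = 0.00147; 0.108 without library B). Within Ly6c2-high cells alone no gene of 3524 passed (edgeR; 360 at an unadjusted p under 0.05), so these are tests of the difference only. The count was 28 without library A, 7 without B, 39 without F and 37 at one depth. Ly6c2-high cells numbered 87 and 55 in A and B and 267 and 117 in F and I.

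Fewest differences were found against Irf8-high cells. The genotype effect differed from theirs for 8 of 3570 genes (0.224%), 7 above 0 (0.196%) and 1 below (0.028%), and 1 of the 8 was Ly6c2, which the rule limits. Apoe stood at 121 and 99.6 CPM in Irf8-high cells of A and B and 144 and 122 in F and I, below the receptor cells of each library (log2 difference 0.70, SE 0.10, edgeR adjusted p = 9.75e-05). Aldh2, the mitochondrial aldehyde dehydrogenase, was at 128 and 121 CPM in receptor cells of A and B and 75.2 and 94.9 in F and I, against 101 and 109 in Irf8-high cells of A and B and 114 and 128 in F and I (log2 difference 0.77, SE 0.13, edgeR adjusted p = 0.000745). Ifitm1 was at 484 and 315 CPM in receptor cells of A and B and 769 and 458 in F and I, against 437 and 352 in Irf8-high cells of A and B and 489 and 305 in F and I (log2 difference -0.61, SE 0.08, edgeR adjusted p = 5.43e-06). These 3 passed without each library in turn and did not pass at one depth, where the differences were 0.58, 0.36 and -0.35 (edgeR adjusted p = 0.273, 0.782 and 0.365). Ifitm3 did not pass here (log2 difference -0.11, SE 0.06). The count was 15 without library A, 5 without B, 13 without F, 39 without I and 4 at one depth.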

How the data were processed

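Per the submitters' processing notes, Cell Ranger 2.0.2, Seurat 2.3.4 and mm10 were used. The deposited table holds raw UMI counts of 3624 genes in 9960 cells, with no normalization by the authors. Genotype and library letter come from the deposited grouping file, in column order, and the letters are not tied to sample numbers. How genes and cells were selected is not given in the sources used here, 99 of the genes being detected in fewer than 10% of cells.

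The members and gene lists were chosen with earlier results of these data known. For each class, UMIs were added up by library. Genes passing filterByExpr were tested by edgeR 4.0.16 under R 4.3.3, with TMM scaling, two-sided quasi-likelihood tests and Benjamini-Hochberg adjustment at 0.05. Positive log2 fold changes are higher in enhancer-deleted libraries. To set 2 classes against each other, each library had its own level and the change of the genotype effect with class was tested. The fits were also run on simulated counts with the same dispersion for all genes and no library effect shared between classes. That setting differs from the comparisons between classes, and no support is drawn from it. Alternatives were DESeq2 1.42.0 and its size factors, no filter, leaving out a library, thresholds of 2 and 5, leaving out cells in the top 5% of UMIs, a term for library sex, and thinning to 4346 UMIs, the 10th percentile. After thinning, receptor, Ly6c2-high and Irf8-high cells were chosen again from the thinned counts. Globin-rich cells had globins of at least 100 per 10000, and Camp-high cells Camp of at least 5. No doublet caller was run.

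Named genes were the rule genes; the 10 largest rises and falls past the threshold within receptor cells with no overlap, the higher genotype averaging 50 CPM or more (Pim1 alone); up to 3 members per list of smallest p, given where the unadjusted p was under 0.05; the 20 genes of 100 CPM or more with the largest ratio over other cells; and the 5 largest differences each way between classes. Further list members were named after their values were seen.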

Additional observations from a re-analysis of the deposited data

Results flagged for a closer look

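Groups of 2 libraries are too small to test a single library as an outlier. The values here are differences, on the log2 scale, between the genotype effect in receptor cells and that in another class, and each passed the interaction test (edgeR, adjusted p under 0.05).

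Against other cells, Ifitm1 (-1.46), Cox4i2 (-1.33), Pim1 (-1.31) and Ifitm3 (-1.16) passed under every alternative run. Hoxa7 (-1.19), a homeobox gene of progenitors, was at 5.79 and 6.70 CPM in receptor cells of A and B and 10.5 and 6.38 in F and I, and did not pass without library A (adjusted p = 0.214), B (0.0868) or F (0.383). On the positive side, Prg2 (9.46, an eosinophil granule protein), Hdc (4.78, the histamine enzyme), Perp (4.0019, a p53 target), Gata2 (3.62) and Pf4 (3.12, a platelet chemokine) rest on few UMIs in receptor cells, at most 2.23 CPM in any library. Other cells of A and B had 0 Prg2 UMIs, so its fitted difference depends on the prior count. At one depth these 5 did not pass, with edgeR adjusted p from 0.0607 for Prg2 to 0.758 for Perp, and neither did Hoxa7 (0.555). Without library A none of the 5 passed, with adjusted p of 1.00 for Prg2, 0.122 for Hdc, 0.247 for Pf4, 0.0636 for Perp and 0.0573 for Gata2. Perp also did not pass without B (0.161), Prg2 without F (0.107) and Pf4 without B (0.0900), F (0.139) or I (0.0549).

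Against Ly6c2-high cells, Id3 (-3.33) and Gstm1 (1.30) passed except without library B. Camp (-5.49), an antimicrobial peptide of neutrophil granules, had 0 UMIs in receptor cells of A and B, so its fitted value depends on the prior count too. Ppfia4 (-2.06), Nrp1 (-2.03, a coreceptor for semaphorins), Ifitm6 (-1.85), Mxd4 (1.51, a partner of MAX), Atg12 (1.5006, an autophagy conjugate), Ypel3 (1.40) and Vamp5 (1.39) were further differences. At one depth neither Camp nor any of these passed, with edgeR adjusted p from 0.178 for Ppfia4 to 0.903 for Camp. Nrp1 stood at 62.0 and 64.4 CPM in receptor cells of A and B and 60.3 and 52.4 in F and I, against 16.3 and 12.3 in Ly6c2-high cells of A and B and 2.69 and 3.92 in F and I. Without library A the adjusted p of these 8 genes ran from 0.0873 for Ifitm6 to 0.699 for Camp, and without B from 0.126 for Mxd4 to 0.285 for Ypel3. Without F all of them but Ypel3 failed too, from 0.0682 for Mxd4 to 0.433 for Camp, and Ypel3 failed without I (0.0976).

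Against Irf8-high cells, Aldh2 (0.77), Apoe (0.70) and Ifitm1 (-0.61) passed without each library in turn. None of the genes flagged in this comparison passed at one depth, with edgeR adjusted p from 0.273 for Apoe to 0.837 for Tmed3. F13a1 (0.41), a coagulation factor chain of monocytes, did not pass without A (0.0517), B (0.588) or F (0.135), Tmed3 (0.40) not without B (0.651) or F (0.0525), and Mpo (0.27) not without B (0.999).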

How the results depend on the processing

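No paired analysis was possible because the library letters carry no replicate numbers. Xist, the transcript of the silenced X chromosome, stood at 0 and 410 CPM over all cells of A and B and 0.0249 and 492 in F and I, so that A and F shared one sex and B and I the other, which the term for library sex uses. The number of genes past the threshold within receptor cells was 1; it was 11 with the DESeq2 Wald test, 9 with a term for library sex, 31 at one depth and 3 at a threshold of 5 per 10000, and leaving out a library gave 1 to 55. Against other cells, 761 became 324 at one depth and 285 at a threshold of 5, with 240 to 892 when a library was left out. Against Ly6c2-high cells, 97 became 37 at one depth, with 7 to 143 when a library was left out. Against Irf8-high cells, 8 became 5 with DESeq2 size factors and 4 at one depth, with 5 to 39 when a library was left out. The cause was not tested. Thinning in the comparisons between classes, and thinned counts with other thresholds, were chosen after seeing the data. The difference in share kept its direction under all 13 alternatives. Of 401 values of 34 named genes within receptor cells, 366 kept sign and side of the threshold, 33 newly passed and 2 changed sign: Ifi30 at one depth (0.0307) and Elane at a threshold of 5 (0.28). Of 503 values of differences between classes, 381 kept both, 116 no longer passed, 2 newly passed and 4 changed sign. These were S100a8 against other cells at a threshold of 5 (-0.0087), Camp against Ly6c2-high cells at one depth (1.40), Pim1 against Ly6c2-high cells without library B (-1.07 to 0.0994 over the libraries left out) and Ifitm3 against Irf8-high cells at one depth (0.0505). A few UMIs decide the rule in each cell (a median of 4 in A and B, 6 in F and 10 in I). With 2 libraries per genotype, genes that did not pass are not shown to be equal.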
